A study of Homo sapiens with 4 samples.

Results

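The transcripts described here belong to HLA class I antigen presentation: the heavy chains HLA-B, HLA-C, HLA-E and HLA-F, the light chain B2M, the peptide transporter subunits TAP1 and TAP2, the bridging chaperone TAPBP (tapasin) and the trimming peptidase ERAP1. Members were found as probes whose platform annotation gives 1 of these 9 symbols and no other. Of 24740 single-gene probes among 31741, 15 met this rule, and they covered 7 of the 9 genes. HLA-B was annotated only on a probe shared with HLA-C and HLA-H, and HLA-E on no probe of the annotation used here, so neither has a value of its own. HLA-C, B2M and TAP1 had 1 probe each, TAP2 had 2, HLA-F and ERAP1 had 3, and TAPBP had 4.

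The cells were derived from DLD-1, a long-established line from a human colorectal adenocarcinoma, and were profiled on single-colour arrays. The DLD-1-HMGA2 line carried a tGFP-tagged pCMV6-HMGA2 plasmid for HMGA2, an AT-hook chromatin protein. The DLD-1-Vector line carried pCMV6-AC-GFP. Both lines came out of selection in the antibiotic G418 at 1 mg/mL, were grown on in 0.5 mg/mL and were otherwise untreated. Each line gave 2 arrays. The labels speak of stable clones and do not say whether a line is 1 clone or several, nor whether the arrays of a line came from separate cultures, so a p-value measures only the spread between these arrays, and the plasmid and a difference between clones cannot be told apart.

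Class I molecules display fragments of the cell's own proteins to CD8 T cells and natural killer cells. Peptides made by the proteasome are pumped into the endoplasmic reticulum by the TAP1 and TAP2 heterodimer, trimmed there by ERAP1, and loaded onto a heavy chain paired with B2M while tapasin holds the empty molecule beside the transporter. Interferon gamma raises most of these genes together, through IRF1 and other factors acting on interferon-stimulated response elements, and the NLRC5 and RFX complex acts on class I promoters. DLD-1 is deficient in mismatch repair, and inactivating mutations of B2M have been described in it. A transcript level on an array says nothing of protein at the cell surface.

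The interferon-stimulated response element is shown first because most of these genes, and few of all promoters, held its core. Its core was searched as GAAA, any 2 bases and GAAA, or as the reverse complement of that, in the 300 bases that RefSeq (GRCh38.p14) gives around each gene start, 250 before it and 50 from it onward. Of 8 member genes with such an entry 6 held the core, against 3.6% of all 35116 promoters of that length. A gene was counted if any of its starts held the core, whereas the 3.6% counts each promoter. The windows of 60 bases are written 5′ to 3′ on the gene's own strand, with the core, or a pair of overlapping cores, in capitals. They lie at chr6:32853801-32853860 (minus strand) for TAP1, chr6:32838763-32838822 (minus strand) for TAP2, chr6:33314061-33314120 (minus strand) for TAPBP, chr15:44711351-44711410 (plus strand) for B2M, chr6:29723253-29723312 (plus strand) for HLA-F and chr5:96807909-96807968 (minus strand) for ERAP1.
TAP1: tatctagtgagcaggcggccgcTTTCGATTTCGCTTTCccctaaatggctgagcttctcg
TAP2: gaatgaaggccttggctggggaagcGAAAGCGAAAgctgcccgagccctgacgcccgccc
TAPBP: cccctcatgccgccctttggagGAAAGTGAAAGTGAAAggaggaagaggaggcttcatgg
B2M: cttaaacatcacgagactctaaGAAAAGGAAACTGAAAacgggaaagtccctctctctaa
HLA-F: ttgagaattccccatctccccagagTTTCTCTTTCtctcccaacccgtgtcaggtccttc
ERAP1: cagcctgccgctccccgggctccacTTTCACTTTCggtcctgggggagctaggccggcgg

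The cores sat at different distances from the gene starts. That of TAP1 spanned bases -134 to -119, that of B2M -144 to -129 and that of HLA-F -156 to -147, counting the base before the start as -1. TAP2 held it at -58 to -49, TAPBP at -20 to -5 and ERAP1 just inside the transcript, at 3 to 12. TAP1 and ERAP1 each have a second start in RefSeq whose promoter did not hold the core. These letters did not occur in the promoters of HLA-B and HLA-C. The search allowed no mismatch, so a variant of the element there would have been missed. Both promoters hold gagtttcacttct near the place of gagTTTCTCTTTC in HLA-F, and whether it acts as such an element was not tested. Their windows at the same distance from the start as that of HLA-F, chr6:31357301-31357360 and chr6:31272214-31272273 on the minus strand, are printed for comparison with the related HLA-F sequence and carry no capitals.
HLA-B: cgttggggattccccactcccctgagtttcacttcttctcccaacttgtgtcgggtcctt
HLA-C: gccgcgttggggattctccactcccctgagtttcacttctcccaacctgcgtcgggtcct

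Other motifs were common. An NF-kB core, searched on both strands as GGG, any 5 bases and CC, was found in HLA-B, HLA-C, B2M, TAP1, TAP2, TAPBP and ERAP1 but not in HLA-F, against 58.7% of all promoters. The NF-Y box CCAAT was found on either strand in HLA-B, HLA-C, HLA-F, B2M, TAP1 and ERAP1, against 34.6%. The CREB/ATF motif TGACG on either strand was found in HLA-B, HLA-C, B2M and TAP2, against 24.6%. A match is a run of letters in a reference sequence and was not tested as a binding site.

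The arrays labelled HMGA2 had median intensities of 649 and 607 units and those labelled vector 698 and 767, and log2 values correlated at r = 0.992 between the HMGA2 arrays, 0.988 between the vector arrays and 0.957 to 0.958 between groups. With limma, 43.6% of the 13752 genes tested had an adjusted p under 0.05: 14.9% were higher and 28.7% lower on the arrays labelled HMGA2. The median over all genes was -0.09 log2 as deposited and 0.09 after quantile normalization, so the differences of the members are also given after that scaling, and those of other named genes where it changes a call. HMGA2 itself did not check the labels: 1 probe read 3917 and 4369 on the arrays labelled HMGA2 and 5576 and 5270 on those labelled vector, and the other 4596 and 3466 against 2728 and 3493. The first, which stood for the gene, was called lower as deposited (log2 -0.39, limma adjusted p = 0.0186) but not after quantile normalization (-0.19, adjusted p = 0.115). In limma's fit of every probe both passed as deposited, in opposite directions (-0.39, adjusted p = 0.00296, and 0.37, adjusted p = 0.0177). Directions therefore rest on the labels. As a check of the cell type, EPCAM read 290962 and 281091 on the arrays labelled HMGA2 and 243656 and 234684 on those labelled vector. The 11 tested colon epithelial markers, EPCAM included, did not move together: 4 were higher and 4 lower. KRT20 read 826 and 717 on the arrays labelled HMGA2, against 4986 and 5299 on those labelled vector. KRT8 read 871 and 842 on the arrays labelled HMGA2, against 4811 and 4398 on those labelled vector. Of 9 leukocyte genes with a probe, PTPRC, CD3E and LYZ lay below the limit for dim genes, 234 units. The other 6 leukocyte genes, CD3D, CD2, MS4A1, CD14, CD68 and ITGAM, lay above it. CD3D, a chain of the CD3 complex of T cells, read 12672 and 11920 on the arrays labelled HMGA2, against 9451 and 10862 on those labelled vector. Its log2 difference was 0.28 (limma adjusted p = 0.0616), and 0.40 after quantile normalization (adjusted p = 0.0293). The second CD3D probe lay below the dim limit, at 128 and 57 on the arrays labelled HMGA2 and -14 and 54 on those labelled vector. What the bright CD3D probe reads was not tested.

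Among the 7 measured members, TAP1 rose and HLA-F and TAP2 fell on the arrays labelled HMGA2, by limma with Benjamini-Hochberg adjustment over all genes. The other 4, HLA-C, B2M, TAPBP and ERAP1, did not pass. Thus 3 of 7 were called, beside the 43.6% of all genes, a share near the background. After quantile normalization the count was also 3 of 7, with TAP1 and HLA-C higher and HLA-F lower, beside 50.6% of all genes, 28% higher and 22.6% lower. All 7 passed the filter on dim genes with their brightest probe. On 6 of those 7 probes, all but that of TAPBP, the groups did not overlap, beside 71.3% of all genes. The median difference of the 7 was -0.24 log2 as deposited and -0.07 after quantile normalization.

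**Figure D1:**
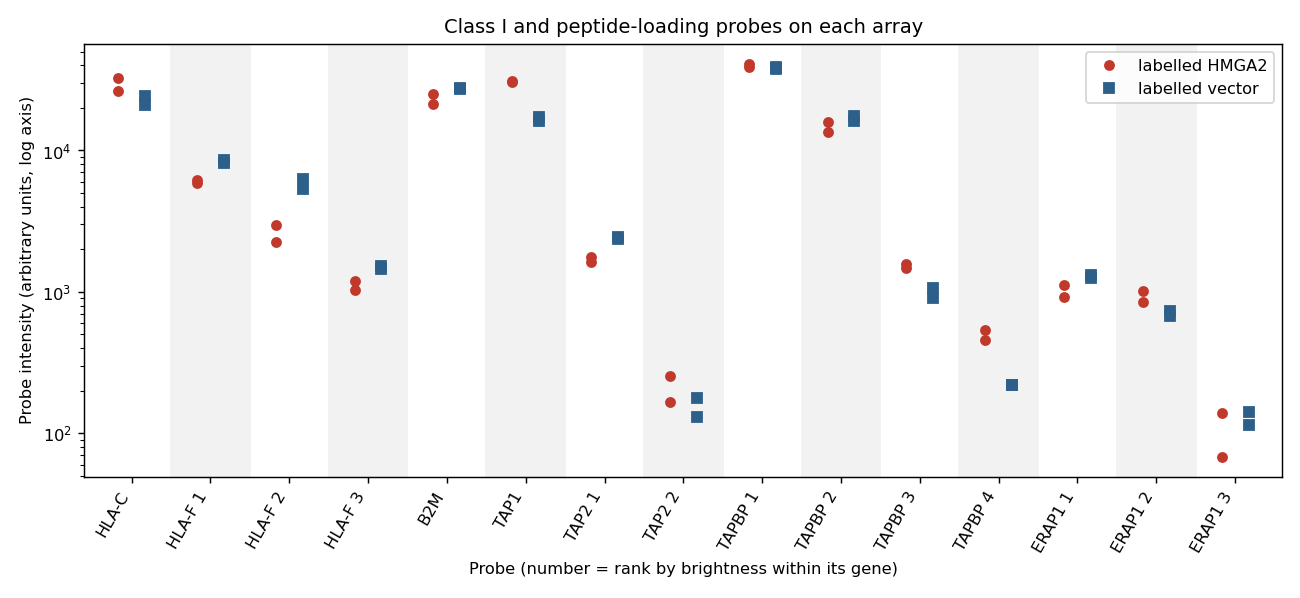
Intensity of the 15 single-gene probes of the 7 measured members on each array (log axis), circles for the 2 arrays labelled HMGA2 and squares for the 2 labelled vector. TAP1 sits at 30846 and 30502 on the HMGA2 arrays and at 17175 and 16253 on the vector arrays, while the 3 HLA-F probes are all lower on the HMGA2 arrays.

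Of the heavy chains, HLA-C is a classical molecule that presents peptides to T cells and is also read by killer-cell immunoglobulin-like receptors. Its probe read 26467 and 32807 on the arrays labelled HMGA2, against 24395 and 20921 on those labelled vector. Both HMGA2 arrays lay above both vector arrays, but the arrays within each group also stood apart, with means of 29637 ± 4483 on the HMGA2 arrays and 22658 ± 2456 on the vector arrays (SD, n = 2 each). The log2 difference was 0.38 (SE 0.13, 95% interval 0.07 to 0.70, limma adjusted p = 0.0558), just short of the threshold. After quantile normalization it was 0.49 (adjusted p = 0.0173), past it. In the fit of every probe the same difference passed as deposited (SE 0.10, adjusted p = 0.00216). Without HMGA2 replicate 2 it was 0.23 (adjusted p = 0.155) and without vector replicate 2 0.27 (adjusted p = 0.135), and the call in the fit of every probe was lost there too (adjusted p = 0.0939 and 0.172). Without HMGA2 replicate 1 it was 0.54 and passed (adjusted p = 0.00709), as it did without vector replicate 1 (0.49, adjusted p = 0.00335).

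The probe shared by HLA-C, HLA-B and HLA-H read 60096 and 67778 on the arrays labelled HMGA2, against 56977 and 54913 on those labelled vector, which gave 0.19 on the log2 scale (SE 0.10, adjusted p = 0.145 in the fit of every probe). After quantile normalization it was 0.27 (adjusted p = 0.0295). The probe shared by HLA-G and HLA-C read 7609 and 9216 on the arrays labelled HMGA2, against 11110 and 9017 on those labelled vector. Those groups overlapped, and the difference of -0.26 (SE 0.11) did not pass (adjusted p = 0.058), nor after quantile normalization (-0.12, adjusted p = 0.516). The probes annotated to HLA-C therefore did not share a sign, but the negative difference was not past the threshold in either version. HLA class I genes are close relatives and highly polymorphic, and how far each probe reads related genes or the alleles of DLD-1 was not tested.

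HLA-F, a nonclassical heavy chain that can reach the surface without peptide and is bound by natural killer cell receptors, was lower on all 3 of its probes. The brightest read 6172 and 5928 on the arrays labelled HMGA2, against 8557 and 8151 on those labelled vector. The log2 difference was -0.47 (SE 0.08, 95% interval -0.66 to -0.27, limma adjusted p = 0.00547) among all genes. Both HMGA2 arrays lay clearly below both vector arrays, and the call held after quantile normalization at -0.31 (adjusted p = 0.0279), but not with array medians subtracted, at -0.24 (adjusted p = 0.197).

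The other HLA-F probes differed in size. The second probe showed the largest fall of any member probe, with 2239 and 2994 on the arrays labelled HMGA2, against 5308 and 6299 on those labelled vector. Its log2 difference was -1.16 (SE 0.12, adjusted p = 8.87e-11 in the fit of every probe) and -0.95 after quantile normalization (adjusted p = 0.00996). The third read 1197 and 1030 on the arrays labelled HMGA2, against 1441 and 1515 on those labelled vector, a difference of -0.41 (SE 0.15, adjusted p = 0.0267) that was -0.15 and not past the threshold after quantile normalization (adjusted p = 0.30). The sources used here do not say which transcript of HLA-F each probe reads.

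B2M, the invariant light chain that every class I heavy chain needs for folding, read 21365 and 25137 on the arrays labelled HMGA2, against 27035 and 27627 on those labelled vector. The groups did not overlap, but 1 HMGA2 array lay nearer to the vector arrays than to its replicate. The log2 difference of -0.24 (SE 0.10, 95% interval -0.48 to -0.00023) did not pass among all genes (limma adjusted p = 0.0971), nor after quantile normalization (-0.16, adjusted p = 0.149). Without HMGA2 replicate 2 it was -0.36 and passed (adjusted p = 0.0167), without HMGA2 replicate 1 it was -0.12 (adjusted p = 0.346), and with array medians subtracted it was -0.017 (adjusted p = 0.945). The interval reaches from almost no difference to a value of -0.48.

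As deposited, the subunits of the peptide transporter were called in opposite directions, but only the TAP1 call was kept after quantile normalization. TAP1 read 30846 and 30502 on the arrays labelled HMGA2, against 17175 and 16253 on those labelled vector. The means were 30674 ± 243 on the HMGA2 arrays and 16714 ± 652 on the vector arrays (SD, n = 2 each), so the gap was many times the spread within either group. TAP1 was 1.84-fold higher in the fit by limma, a log2 difference of 0.88 (SE 0.07, 95% interval 0.70 to 1.06, limma adjusted p = 0.000431), and 0.97 after quantile normalization (adjusted p = 0.000617). It kept its direction and passed under all 15 alternatives, with differences from 0.84 to 1.10.

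TAP2 read 1755 and 1618 on its brighter probe on the arrays labelled HMGA2, against 2436 and 2366 on those labelled vector. The groups were well apart as deposited, with a log2 difference of -0.51 (SE 0.10, 95% interval -0.75 to -0.27, limma adjusted p = 0.0076). After quantile normalization it was -0.27 and no longer passed (adjusted p = 0.0633), as with array medians subtracted (-0.29, adjusted p = 0.085). The second TAP2 probe was dim, with 252 and 167 on the arrays labelled HMGA2 and 130 and 177 on those labelled vector. Its groups overlapped and its mean lay below the limit for dim genes, and the difference was 0.44 as deposited (adjusted p = 0.529 in the fit of every probe) and 0.45 after quantile normalization (adjusted p = 0.0527). With the mean of both probes the TAP2 difference was -0.04 (adjusted p = 0.891).

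TAPBP, or tapasin, which tethers empty class I molecules to the transporter and edits their peptides, did not give 1 direction over its 4 probes. The brightest read 41140 and 38641 on the arrays labelled HMGA2, against 39200 and 37752 on those labelled vector. These overlapped, and the log2 difference of 0.05 (SE 0.07, 95% interval -0.13 to 0.23) did not pass (limma adjusted p = 0.614), nor after quantile normalization (0.14, adjusted p = 0.199). The second brightest read 13507 and 15871 on the arrays labelled HMGA2, against 16220 and 17445 on those labelled vector, a difference of -0.20 that did not pass in the fit of every probe (adjusted p = 0.119), nor after quantile normalization (-0.11, adjusted p = 0.398).

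The dimmer pair of TAPBP probes rose. The third probe read 1571 and 1481 on the arrays labelled HMGA2, against 908 and 1073 on those labelled vector, which gave 0.63 on the log2 scale (SE 0.15, adjusted p = 0.000774 in the fit of every probe) and 0.87 after quantile normalization (adjusted p = 0.00322). The fourth read 456 and 538 on the arrays labelled HMGA2, against 220 and 218 on those labelled vector, a difference of 1.18 (SE 0.28, adjusted p = 0.000613) and 1.29 after quantile normalization (adjusted p = 0.00541). Both HMGA2 arrays stood above both vector arrays on each. Averaging the 4 probes turned the gene-level result into a call (0.41, adjusted p = 0.00675), so the tapasin value depends on which probe stands for the gene. The vector level of the fourth probe was below the dim limit of 234 units.

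ERAP1, the aminopeptidase that shortens peptides to the length class I binds, also split between probes. The brightest read 1113 and 923 on the arrays labelled HMGA2, against 1307 and 1257 on those labelled vector, and the log2 difference was -0.34 (SE 0.13, limma adjusted p = 0.0867). After quantile normalization it was -0.07 (adjusted p = 0.659). With each array left out in turn it ran from -0.47, without HMGA2 replicate 1, to -0.20, without HMGA2 replicate 2. The second went the other way, with 842 and 1008 on the arrays labelled HMGA2, against 737 and 679 on those labelled vector, a difference of 0.38 (SE 0.18, adjusted p = 0.103 in the fit of every probe) that passed after quantile normalization at 0.61 (adjusted p = 0.0313). The groups did not overlap on either, yet neither passed as deposited. The third was dim, with 139 and 68 on the arrays labelled HMGA2 and 115 and 142 on those labelled vector, and its overlapping groups gave -0.39 as deposited (adjusted p = 0.70) and -0.58 after quantile normalization (adjusted p = 0.0355).

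Counted by probe, 4 of the 15 were higher, 4 lower and 7 not past the threshold in the fit of every probe with limma, beside 32.4% of all 31741 probes called, 10.9% higher and 21.5% lower. After quantile normalization 5 were higher, 3 lower and 7 not past, beside 36.9% called, 19.1% higher and 17.8% lower. On 12 of the 15 the groups did not overlap, beside 56.2% of all probes. These shares over all probes include every dim probe, whereas only 2 of the 15 lay below the limit for dim genes. Among the genes that passed the filter the shares were higher, 43.6% called and 71.3% not overlapping. HLA-F was the only member measured on more than 1 probe whose probes all had the same sign, as deposited and after quantile normalization.

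**Figure D2:**
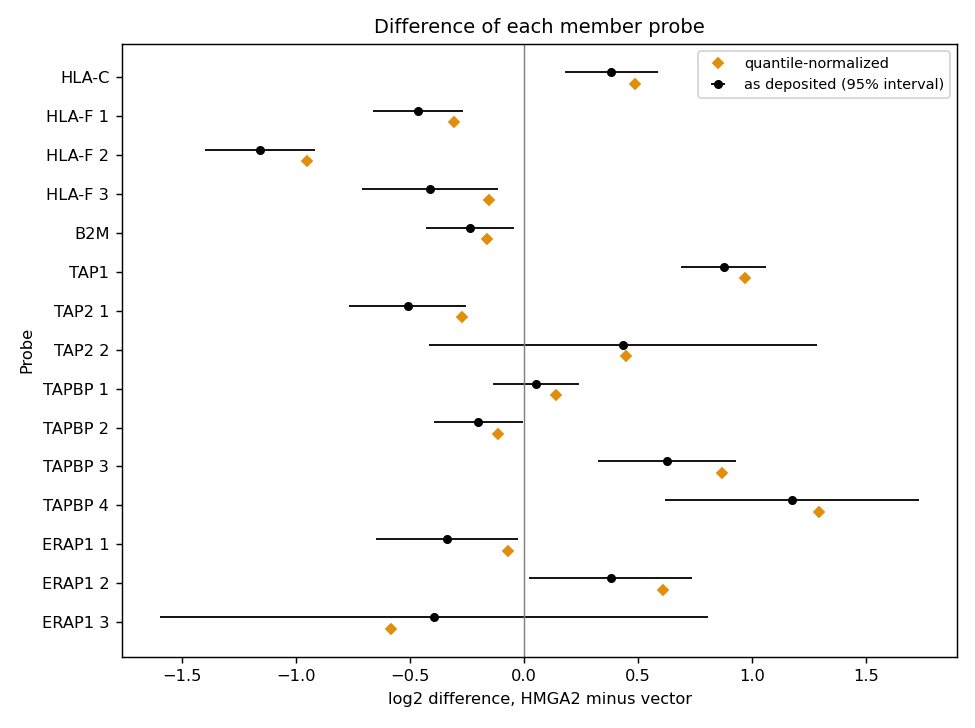
Log2 difference, HMGA2 minus vector, of each of the 15 member probes in the fit of every probe, with circles and 95% intervals for the values as deposited and diamonds for the quantile-normalized values. TAP1 lies near 0.9 and HLA-F near -0.5 to -1.2 on its first 2 probes, while the probes of TAPBP and of ERAP1 lie on both sides of 0.

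Of 12 genes of the loading complex and of folding in the endoplasmic reticulum, TAP1 and TAP2 included, 2 rose and 4 fell. After quantile normalization 3 rose and 3 fell. Here and for the next lists the shares over all genes were 14.9% higher and 28.7% lower as deposited. TAPBPL, the tapasin relative that edits peptides away from the transporter, rose: it read 3156 and 3061 on the arrays labelled HMGA2, against 2008 and 1919 on those labelled vector (log2 0.66, SE 0.09, adjusted p = 0.00214). PDIA3, the disulfide isomerase joined to tapasin, fell, with 255 and 166 on the arrays labelled HMGA2 and 464 and 469 on those labelled vector (log2 -1.18, SE 0.28, adjusted p = 0.0166). Its mean on the arrays labelled HMGA2 lay below the limit for dim genes, so the size is uncertain.

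The glucosidase that trims glycans before calnexin and calreticulin bind was lower in both of its subunits. GANAB, the catalytic subunit, read 1874 and 2012 on the arrays labelled HMGA2, against 4439 and 4022 on those labelled vector (log2 -1.12, SE 0.10, adjusted p = 0.000478). PRKCSH, the other subunit, read 18975 and 20320 on the arrays labelled HMGA2, against 39561 and 37869 on those labelled vector (log2 -0.98, SE 0.08, adjusted p = 0.000354). Second probes of both genes lay below the dim limit. The chaperones of the complex did not pass: CALR differed by 0.12 (95% interval -0.09 to 0.33) and CANX by -0.03 (95% interval -0.20 to 0.14). After quantile normalization these were 0.19 for CALR and 0.10 for CANX, and neither passed.

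Among 9 peptidases that make, trim or destroy class I peptides, ERAP1 included, 3 rose and 2 fell, with the same counts after quantile normalization. BLMH, a cytosolic cysteine aminopeptidase, rose most, with 4525 and 5054 on the arrays labelled HMGA2 and 2273 and 1928 on those labelled vector (log2 1.19, SE 0.12, adjusted p = 0.0007). LNPEP, the endosomal relative of ERAP1, rose by 0.47 (SE 0.10) and the oligopeptidase THOP1 by 0.36 (SE 0.09), and after quantile normalization these were 0.72 for LNPEP and 0.58 for THOP1. TPP2, a giant cytosolic peptidase, read 19650 and 20351 on the arrays labelled HMGA2, against 30010 and 30067 on those labelled vector (log2 -0.59, SE 0.07, adjusted p = 0.00145). NPEPPS, the puromycin-sensitive aminopeptidase, had a difference of -0.48 (SE 0.13, adjusted p = 0.0308). ERAP2, the partner of ERAP1, did not pass on its brightest probe (-0.13, 95% interval -0.31 to 0.05, and -0.03 after quantile normalization), while its second probe read 2643 and 2433 on the arrays labelled HMGA2, against 4817 and 4532 on those labelled vector (-0.88, adjusted p = 1.24e-08 in the fit of every probe).

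In the immunoproteasome list, which holds the interferon-inducible catalytic subunits, the activator and an assembly chaperone, 1 of 6 rose and 4 fell. After quantile normalization 2 rose and 3 fell. PSMB10 rose about as far as TAP1, with 1958 and 1958 on the arrays labelled HMGA2 and 994 and 958 on those labelled vector (log2 1.00, SE 0.10, adjusted p = 0.000758). PSME2, a subunit of the proteasome activator, fell: it read 35363 and 30205 on the arrays labelled HMGA2, against 64349 and 67726 on those labelled vector (log2 -1.01, SE 0.10, adjusted p = 0.000616). Its partner PSME1 fell by 0.41 (SE 0.08) on the brighter probe, and its other probe gave -0.91. POMP, the assembly chaperone, had a difference of -0.88 (SE 0.09, adjusted p = 0.000784).

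The other catalytic subunits lie beside the transporter genes, in the order TAP2, PSMB8, TAP1 and PSMB9. PSMB9, whose start site is 488 bases from that of TAP1 on the opposite strand, read 3494 and 3257 on the arrays labelled HMGA2, against 3256 and 3109 on those labelled vector. The groups did not overlap but all but touched, and the log2 difference of 0.08 (SE 0.09, 95% interval -0.14 to 0.31) did not pass (limma adjusted p = 0.492), while it was 0.31 after quantile normalization and passed (adjusted p = 0.0445). PSMB8 read 8256 and 7873 on the arrays labelled HMGA2, against 9898 and 9922 on those labelled vector, a difference of -0.30 (SE 0.08, adjusted p = 0.0241) that lost its call after quantile normalization (-0.16, adjusted p = 0.153). Its second probe gave 0.17 and did not pass as deposited (adjusted p = 0.328), but passed as higher after quantile normalization (0.40, adjusted p = 0.0443), opposite in sign to the brightest. The intervals of TAP1 and PSMB9 do not overlap; the difference between the genes was not tested.

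**Figure D3:**
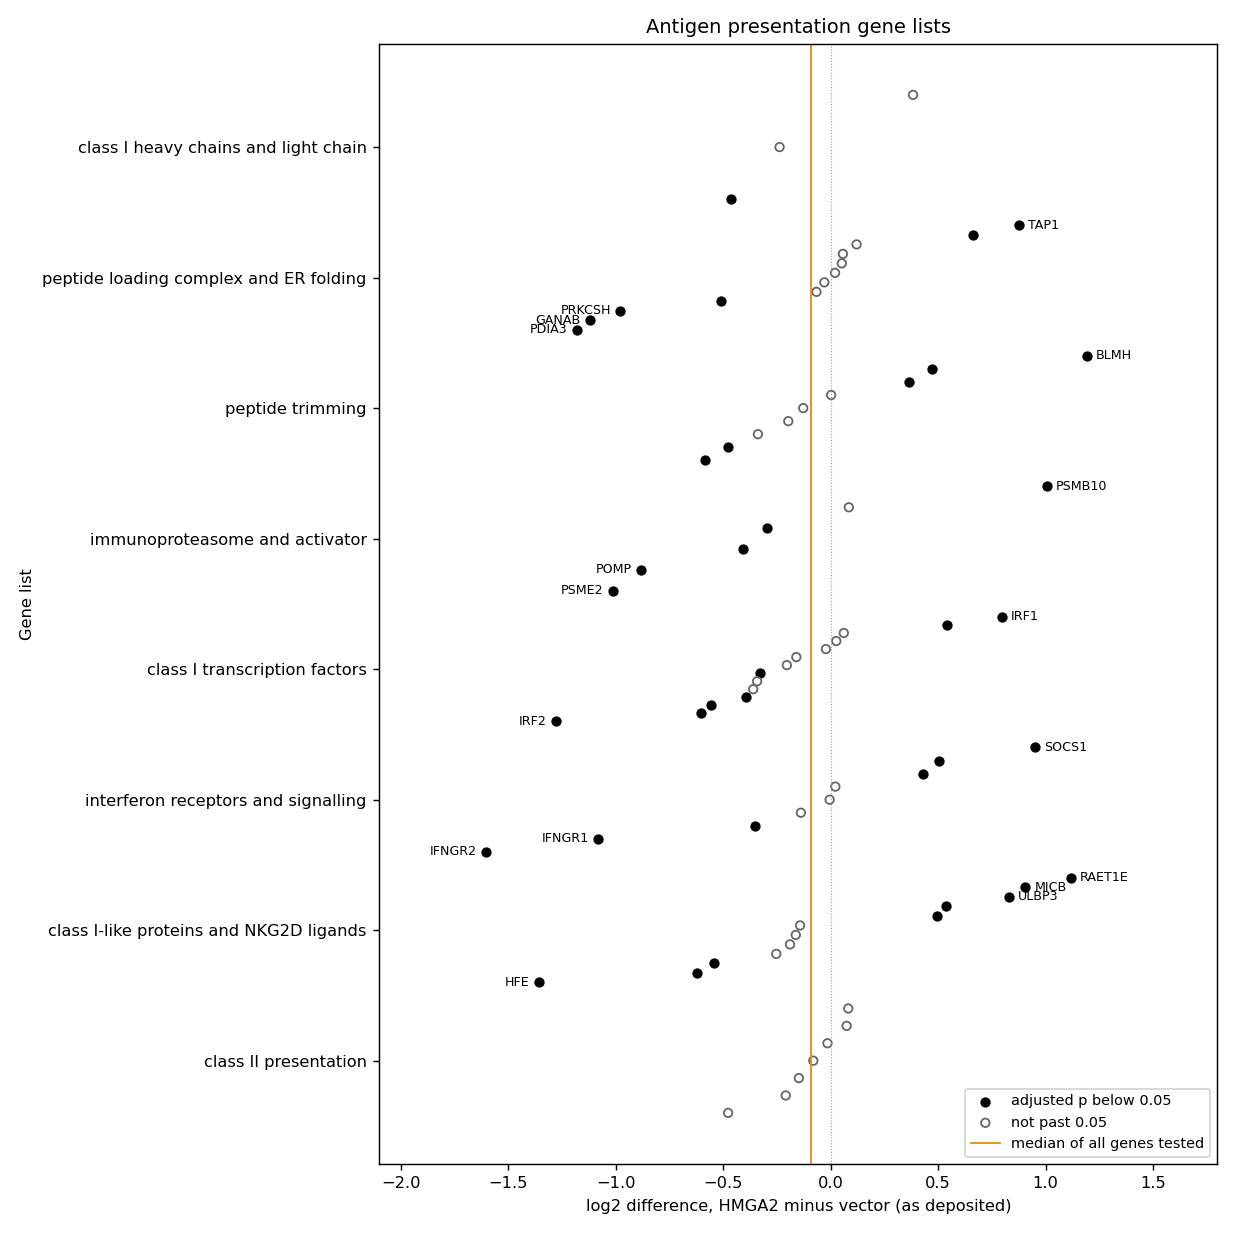
Log2 difference, HMGA2 minus vector, as deposited, of every tested gene of 8 antigen presentation lists, filled where the limma adjusted p is below 0.05 and open otherwise, with a line at the median of all genes tested, -0.09. Most lists hold filled points on both sides, and the class II list holds none.

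Among 14 tested regulators of class I transcription 2 rose and 5 fell. After quantile normalization 2 rose and 3 fell. The interferon regulatory factors were opposite. IRF1, the activator that binds the response element, rose: it read 5941 and 6103 on the arrays labelled HMGA2, against 3250 and 3696 on those labelled vector (log2 0.80, SE 0.10, adjusted p = 0.00144). Its dimmer second probe gave 0.34 and did not pass as deposited (adjusted p = 0.347), and passed after quantile normalization (0.51, adjusted p = 0.0216). IRF2, which binds the same element and can repress or activate through it, fell: it read 543 and 470 on the arrays labelled HMGA2, against 1163 and 1292 on those labelled vector (log2 -1.28, SE 0.15, adjusted p = 0.00115).

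RFX5, the DNA-binding subunit of the complex on the X box, fell by 0.60 log2 (SE 0.10, adjusted p = 0.00383), and RELA, the NF-kB subunit, by 0.56 (SE 0.08, adjusted p = 0.0022). RFX5 read 3461 and 3794 on the arrays labelled HMGA2, against 5271 and 5734 on those labelled vector, and after quantile normalization its difference was -0.39 (adjusted p = 0.0168). NLRC5, the class I transactivator, read 4004 and 4271 on the arrays labelled HMGA2, against 4555 and 4982 on those labelled vector, and did not pass (-0.20, 95% interval -0.43 to 0.02, adjusted p = 0.126), while its dimmer second probe gave 0.29 (adjusted p = 0.346 in the fit of every probe) and passed after quantile normalization (0.49, adjusted p = 0.028). STAT3 rose by 0.54 (SE 0.08, adjusted p = 0.00327), and its second probe by 0.66.

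Of 9 interferon receptor and signalling genes 3 rose and 3 fell, with the same counts after quantile normalization. Both chains of the interferon gamma receptor fell. IFNGR2, the signalling chain, read 1110 and 1059 on the arrays labelled HMGA2, against 3365 and 3224 on those labelled vector (log2 -1.60, SE 0.10, adjusted p = 0.000165). IFNGR1, the ligand-binding chain, read 6103 and 7398 on the arrays labelled HMGA2, against 15429 and 13167 on those labelled vector (log2 -1.08, SE 0.13, adjusted p = 0.00129). Neither chain of the type I receptor passed on its brightest probe, with IFNAR1 at -0.14 (95% interval -0.34 to 0.06) and IFNAR2 at -0.0048 (95% interval -0.34 to 0.33). They were 0.08 for IFNAR1 and 0.24 for IFNAR2 after quantile normalization and did not pass there either, while the second IFNAR1 probe passed after that scaling (0.40, adjusted p = 0.0218) and not as deposited (0.15, adjusted p = 0.472).

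Below the receptors, SOCS1, the feedback inhibitor of JAK kinases, rose: it read 1053 and 1069 on the arrays labelled HMGA2, against 620 and 486 on those labelled vector (log2 0.95, SE 0.16, adjusted p = 0.00507). TYK2, a kinase of the type I receptor, read 7234 and 5624 on the arrays labelled HMGA2, against 4613 and 4384 on those labelled vector (0.50, SE 0.13, adjusted p = 0.0242). JAK2 passed narrowly (0.43, SE 0.14, adjusted p = 0.0498), and with a wider margin after quantile normalization (0.68, adjusted p = 0.00715). JAK1 went the other way, with 13026 and 13596 on the arrays labelled HMGA2 and 17586 and 16377 on those labelled vector. Its difference was -0.35 (SE 0.08, limma adjusted p = 0.015), and -0.26 after quantile normalization (adjusted p = 0.0295). Its second probe gave 0.001 and did not pass (adjusted p = 0.997 in the fit of every probe).

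**Figure D4:**
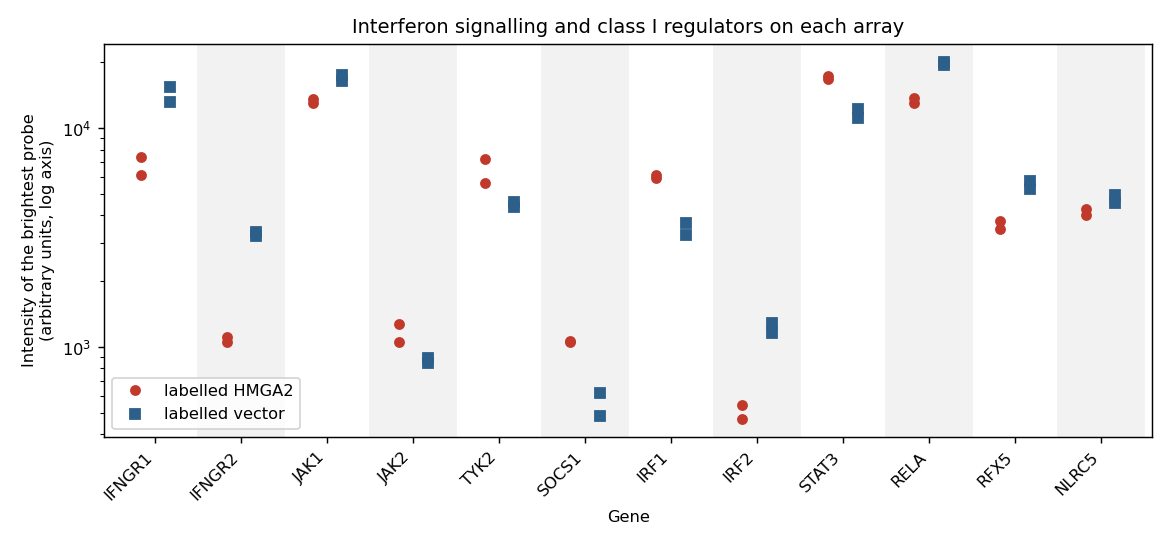
Intensity of the brightest probe of 12 interferon signalling and class I regulator genes on each array (log axis), circles for arrays labelled HMGA2 and squares for arrays labelled vector. IFNGR1, IFNGR2 and IRF2 lie lower on both HMGA2 arrays, and IRF1 and SOCS1 higher.

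Among 12 tested class I-like proteins and ligands of the natural killer receptor NKG2D, 5 rose and 3 fell. After quantile normalization 5 rose and 1 fell. MICB, a stress-induced NKG2D ligand encoded in the MHC, rose about as far as TAP1, with 19229 and 19193 on the arrays labelled HMGA2 and 10377 and 10123 on those labelled vector (log2 0.91, SE 0.07, adjusted p = 0.000388). RAET1E, another NKG2D ligand, read 1466 and 1463 on the arrays labelled HMGA2, against 645 and 705 on those labelled vector (log2 1.12, SE 0.12, adjusted p = 0.000903), and its second probe was below the dim limit. ULBP3, also a ligand, rose by 0.83 (SE 0.12, adjusted p = 0.0025). The groups did not overlap for any of these. Not every ligand rose. ULBP1 fell by 0.54 (SE 0.13, limma adjusted p = 0.0195), a call lost after quantile normalization (-0.30, adjusted p = 0.124). Its second probe gave -0.78 (adjusted p = 0.0115 in the fit of every probe) and also lost its call there (-0.66, adjusted p = 0.317). ULBP2 (-0.16) and RAET1L (-0.25) did not pass.

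HFE, a class I-like protein of iron sensing that pairs with B2M, fell: it read 544 and 506 on the arrays labelled HMGA2, against 1412 and 1284 on those labelled vector (log2 -1.36, SE 0.13, adjusted p = 0.00066). MR1, which presents vitamin B metabolites, read 1631 and 2000 on the arrays labelled HMGA2, against 2545 and 3043 on those labelled vector (-0.62, SE 0.14, adjusted p = 0.015), a call lost after quantile normalization (-0.39, adjusted p = 0.0606). In the class II list limma called 0 of 7 tested genes either way, and 0 had an unadjusted p under 0.05; after quantile normalization HLA-DOB alone passed (0.33, adjusted p = 0.0479).

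Of the members, 7 lie in the MHC on chromosome 6, ERAP1 lies on chromosome 5 and B2M on chromosome 15. The RefSeq table holds 140 protein-coding genes from HLA-F to TAPBP, of which 99 were tested. Of these 99, 13 rose and 27 fell as deposited, counts near the shares over all genes, 14.9% higher and 28.7% lower. Their median was -0.05 log2, against -0.09 over all genes. After quantile normalization 30 rose and 18 fell, beside 28% and 22.6% of all genes. In both versions 13 were called higher and 18 lower, and 0 in opposite directions. Genes with calls in each direction lay along the region, and TAP1 stood among neighbours of both signs. The nearest tested genes on either side of HLA-C, CCHCR1 (0.39, limma adjusted p = 0.025) and MICA, were both called higher. HLA-C is followed by HLA-B, with no value here, and then by MICA, which rose by 0.50 (SE 0.08, adjusted p = 0.00467), and MICB.

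**Figure D5:**
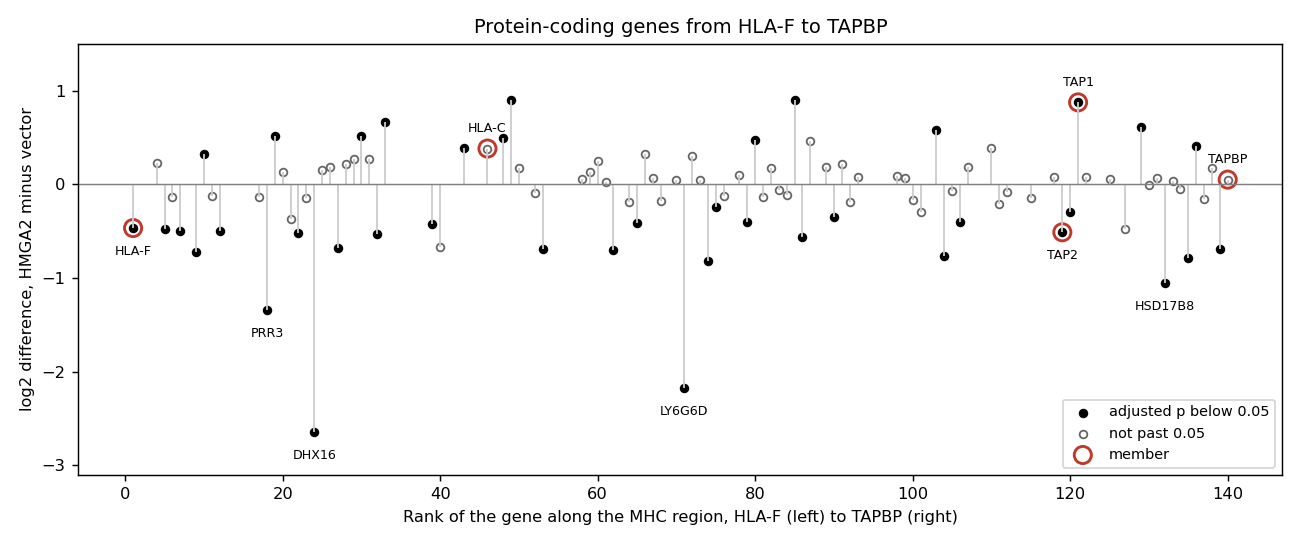
Log2 difference, HMGA2 minus vector, as deposited, of the 99 tested protein-coding genes from HLA-F to TAPBP against their rank along the region, filled where the limma adjusted p is below 0.05, with the 5 measured members on it circled. Filled points occur above and below 0 along its length, and TAP2 and TAP1 lie 2 ranks apart on opposite sides.

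By the Euclidean distance between centred log2 values over the 4 arrays, the genes nearest to TAP1 among 13751 others were MTNR1B (0.0228), LHFPL6 (0.0252) and SEC11C (0.0353). SEC11C, a subunit of the signal peptidase, read 39819 and 39740 on the arrays labelled HMGA2, against 22398 and 21689 on those labelled vector. With 2 arrays a group, such likeness reflects a difference of like size and a small spread, and was not tested.

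Leukocyte markers moved both ways beside these genes. Of 9 with a probe, 3 lay below the dim limit, 2 were higher (MS4A1 and CD68) and 1 lower (CD14), and none read 0 or less on any array with its brightest probe. Their summed intensity was 19494 and 18377 on the arrays labelled HMGA2, against 16782 and 19076 on those labelled vector, and their part in the results was not tested. Of 11 tested colon epithelial markers 4 were higher and 4 lower: VIL1 was higher by 1.23 log2, and KRT20 (-2.74), KRT8 (-2.43), LGALS4 (-0.76) and CDX2 (-0.62) were lower.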

How the data were processed

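Per the labels' protocols, total RNA of the 4 samples was amplified by an Eberwine method, labelled with Cy5 and put on single-colour arrays. The authors deposited intensity values on a linear scale; the sources used here do not give the scanner, background correction or normalization. The log2 of each value was used without added scaling, after raising values below 1 to 1; vector replicate 1 had 639 probes at or below 0 and no other array more than 9. Groups came from the sample titles. Platform annotation gave a single gene to 24740 probes, several to 977 and none to 6024. Older symbols on 1948 of the single-gene probes were updated through RefSeq (GRCh38.p14). After that, 99.7% of the single-gene probes had a symbol that RefSeq holds.

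The brightest probe stood for each of 18336 genes, and 4584 genes under the 25th percentile of mean level were dropped. Tests used limma 3.58.1 (R 4.3.3; eBayes with a trend on intensity), Benjamini-Hochberg adjustment over 13752 genes and a threshold of 0.05. A second fit took every probe with no filter; its prior degrees of freedom were 40.0 as deposited, against 4.08 in the gene fit, so p-values of the 2 fits are not interchangeable. An exact two-sided permutation of 2 arrays against 2 cannot go below 0.333. The number of arrays limits the precision.

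Members, lists and tests were chosen with earlier results of these data known. Genes named were the members, up to 5 of each list with the largest called differences, HMGA2, and the 3 genes nearest to the member that differed most. ERAP2, CALR, CANX, PSMB9, NLRC5, IFNAR1, IFNAR2, HLA-DOB, HLA-DQB1, UGGT1, BCAP31, CCHCR1, MICA and the marker genes EPCAM, PTPRC, CD3E, CD3D, CD2, ITGAM and LYZ were named after their values were seen. So were JAK1, ULBP1, ULBP2 and RAET1L. The gene fit was tested on simulated data of 13752 genes, 200 of them changed: it found 9.55% of changes of 0.5 log2, 66.4% of changes of 1 and 91.4% of changes of 2, and 4.92% of its calls were false. The simulated noise was independent between genes and arrays, with no shift of a whole array. Far fewer genes were changed than the 43.6% called in the data, so these rates need not hold for the real arrays. Alternatives covered scaling, filter, probe choice, variance model, threshold, a linear offset of 64, the replicate number as a block, and each array left out.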

Additional observations from a re-analysis of the deposited data

How the results depend on the processing

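Over all genes 2051 were higher and 3943 lower as deposited; 3844 were higher after quantile normalization, 3715 were higher and 2479 lower with array medians subtracted, and 1037 were higher at an adjusted p of 0.01. Rises made up 34.2% of calls as deposited, 55.2% after quantile normalization and 60% with array medians subtracted, where the median over all genes was 0.13 log2. Members called higher numbered 1 as deposited, 2 after quantile normalization, with array medians subtracted or with no filter, and 3 with the mean of all probes; those called lower numbered 2 as deposited, 1 after quantile normalization or with the mean of probes, and 0 with array medians subtracted, where limma gave 1 at an unadjusted p under 0.05. Leaving out each array in turn gave 1 to 2 members higher and 2 to 3 lower, with the values of HLA-C, B2M and ERAP1 given beside those genes. Genes of the 8 antigen presentation lists called lower numbered 22 as deposited, 11 with array medians subtracted and 14 at an adjusted p of 0.01. In the MHC region 13 were higher as deposited, 30 after quantile normalization and 29 with array medians subtracted, and 27 were lower as deposited, 12 with array medians subtracted and 17 at an adjusted p of 0.01.

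Over the 7 members and their alternatives, 90 of 104 differences kept direction and side of the threshold, 10 passed it only under the alternative, 4 lost their call and 0 changed sign. Among member probes 2 values changed sign, neither past the threshold: the second TAPBP probe was 0.021 with array medians subtracted, and the third ERAP1 probe ran from -0.91 to 0.12 when each array was left out, being 0.12 without HMGA2 replicate 2. ERAP1 was not measured with the filter at the 50th percentile. The replicate numbers are shared between groups, but deviations from the group means of same-numbered arrays correlated at r = -0.20 across genes, so the numbers were not taken as pairs. With the replicate number as a block 2 members were higher and 2 lower, and 1819 genes were higher and 3510 lower. With the pairs of the block crossed, chosen after seeing the data, 2590 genes were higher and 4619 lower, 2 members were higher, and 20 genes of the MHC region were higher. Dim probes limit the second TAP2 and the third ERAP1 probe.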

Other observations

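The HLA-DQB1 probes, of a class II beta chain, read at very different levels. The brightest gave 33640 and 37059 on the arrays labelled HMGA2, against 40497 and 37811 on those labelled vector. Of the dim pair, 1 probe gave 272 and 262 on the arrays labelled HMGA2, against 358 and 428 on those labelled vector. The other gave 456 and 375 on the arrays labelled HMGA2, against 264 and 391 on those labelled vector. None of the 3 passed the threshold as deposited; after quantile normalization the dim pair passed in opposite directions (-0.46, adjusted p = 0.0474, and 0.51, adjusted p = 0.0426, in limma's fit of every probe), and what the bright probe reads was not tested.

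The brightest probe left out changes that other probes of the same genes showed. UGGT1, the folding sensor that sends glycoproteins back to calnexin, did not pass on its brightest probe (-0.07, limma adjusted p = 0.563), while its second read 850 and 810 on the arrays labelled HMGA2, against 2759 and 2406 on those labelled vector (-1.63, SE 0.14). BCAP31, an export chaperone of class I molecules, likewise gave 0.02 on the brightest probe, while its second read 9074 and 9247 on the arrays labelled HMGA2, against 18982 and 20096 on those labelled vector (-1.09, SE 0.09). Both second probes also passed after quantile normalization, with adjusted p = 0.00127 for UGGT1 and 0.0013 for BCAP31 in limma's fit of every probe.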
